A study of Mus musculus with 32 samples.

Results

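The genes described here make and spend nicotinamide adenine dinucleotide (NAD) in the mouse lung: Nampt, Nmnat1, Nmnat3, Nmrk1 and Naprt, which build NAD from its precursors, Nnmt, which removes one of those precursors, and Cd38, Sirt1, Sirt3 and Sirt6, which consume NAD. They were chosen by name, for their place in NAD metabolism, and make up 10 of the 41687 rows of the gene table. All 10 were found in the table by their symbols.

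Bulk RNA was sequenced from the lungs of 12 mice, 6 wild type (WT) C57b/6 animals and 6 Bmal1 knock-outs (KO), all adults of 8 to 18 weeks, bred in-house and labelled female. Each RNA was made into libraries by up to 3 preparations, which differ in how ribosomal RNA is dealt with. RiboZero libraries had ribosomal RNA pulled down, PolyA libraries were selected for polyadenylated RNA, and NoSelect libraries, made from 15 ng of RNA in place of 200 ng, had neither step. RiboZero and PolyA each have 6 WT and 6 KO libraries, and NoSelect has mice 3 to 6 of each genotype. A mouse keeps its number and genotype across preparations, whereas equal numbers in WT and KO are different animals. The labels call the KO animals Bmal1 knock-outs and give no allele, no Cre driver and no time of day of collection.

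NAD is used up by enzymes that cleave it, and most tissues rebuild it by recycling the nicotinamide that is released. NAMPT catalyses the rate-limiting step of that salvage route, and the NMNAT enzymes complete it. BMAL1, encoded by Arntl, pairs with CLOCK on E-box elements (CACGTG) and is the core activator of the circadian clock. Nampt is known as a clock-controlled gene in liver, and SIRT1, whose deacetylase activity needs NAD, acts back on clock proteins. A comparison of KO with WT lung therefore asks how far the transcripts of this loop depend on BMAL1, and the preparations ask how far the answer depends on the way the library was made.

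Promoter sequences are shown for Sirt1 and Nampt, because they are the endpoints of that loop and differ in E-boxes. RefSeq windows (GRCm38.p6) of 300 bases, from 250 before to 50 after a gene start, were matched for 8 of the 10 genes, with 11 windows in all, and none was matched for Nnmt or Naprt. The palindromic motif CACGTG, which reads the same on both strands, was searched for and is in capitals. It was in 1 of the 11 windows, that of Sirt1 (chr10:63338986-63339285, minus strand). There it occurs 2 times and begins at positions -115 and -43 from the RefSeq start of that window. The Nampt window (chr12:32820085-32820384, plus strand) has no copy. Both windows lie inside the gene bounds given further on, which come from another annotation, GENCODE. Among all 32851 windows, 7.15% hold at least 1 copy and 0.59% at least 2. A match is a run of letters and not a measured binding site, and a window without one says nothing about sites elsewhere in the gene.
Sirt1: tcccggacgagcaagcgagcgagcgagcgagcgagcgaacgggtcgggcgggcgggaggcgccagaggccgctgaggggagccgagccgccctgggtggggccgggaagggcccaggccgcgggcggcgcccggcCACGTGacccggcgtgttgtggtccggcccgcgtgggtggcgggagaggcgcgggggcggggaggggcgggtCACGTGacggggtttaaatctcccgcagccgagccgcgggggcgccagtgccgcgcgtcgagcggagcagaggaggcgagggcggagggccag
Nampt: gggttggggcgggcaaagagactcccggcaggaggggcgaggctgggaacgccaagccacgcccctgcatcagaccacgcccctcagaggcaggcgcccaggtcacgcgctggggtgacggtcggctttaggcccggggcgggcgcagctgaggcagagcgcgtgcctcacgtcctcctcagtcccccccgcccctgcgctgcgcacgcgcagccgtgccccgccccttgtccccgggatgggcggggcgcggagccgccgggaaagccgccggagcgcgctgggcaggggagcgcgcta

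Total counts ranged from 11638590 to 25801192 in RiboZero, from 29924271 to 41548759 in PolyA and from 74979759 to 115059730 in NoSelect, where 69.2% ± 1.35 (SD, n = 8) fell in the rows of Lars2 and Gm42418. Levels are given as normalised CPM, the counts of a gene divided by a library size that is adjusted jointly over all 32 libraries. Arntl, the targeted gene, had KO against WT log2 fold changes of -0.83 (RiboZero), -0.27 (PolyA) and -0.69 (NoSelect). Across the preparations in turn, SEs were 0.07, 0.06 and 0.05 and the edgeR adjusted p-values 2.46e-05, 0.0262 and 0.000451, all past the threshold. WT and KO libraries did not overlap for Arntl in RiboZero (WT 27.0 to 33.9 CPM, KO 15.2 to 18.7 CPM) or NoSelect (WT 27.5 to 29.4, KO 16.6 to 18.7), but did in PolyA (WT 19.6 to 23.6, KO 17.0 to 20.9). Libraries of mouse KO 6 stood apart from their sex label: Xist had 2 to 16 counts in its 3 libraries against 13590 to 52858 in the other 29, and Ddx3y had 2195 to 2967 counts against 0. The NoSelect library of that mouse is also labelled as liver, yet its 8 hepatocyte markers summed to 5.23 CPM (2.02 to 10.2 in the other 31 libraries) and its 6 alveolar type 2 markers to 11290 CPM (8046 to 15660 in the others). Leaving out mouse KO 6 changed the number of called NAD genes in none of the 9 comparisons below. As this is bulk tissue, fewer cells of a type and less RNA per cell cannot be told apart.

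None of the NAD genes passed the test between KO and WT in any preparation. A gene was called at a p under 0.05 from the quasi-likelihood test of edgeR, adjusted by Benjamini-Hochberg over every row tested. In RiboZero 0 of 10 genes were called, where 3.46% of the 16710 rows tested were. In PolyA the count was 0 of 9 against 4.03% of 17211 rows, since Nmnat3 failed the low-count filter there, and in NoSelect 0 of 10 against 2.17% of 17124 rows. For none of the genes tested were WT and KO libraries fully separated, a pattern seen in 2.89%, 3.32% and 9.48% of rows in the same order. At an unadjusted p under 0.05 the counts were 0, 1 (Naprt) and 0 genes, beside 2739, 3098 and 2696 rows. By DESeq2 they were 0, 1 (Naprt) and 0 at its adjusted threshold, beside 976, 1355 and 878 of the same rows. That is more rows than the 579, 694 and 372 that edgeR called. The median absolute log2 fold change was 0.03 over the NAD genes in RiboZero and 0.09 over all rows, 0.07 and 0.10 in PolyA, and 0.07 and 0.09 in NoSelect. The median SE of the NAD genes, 0.10, 0.08 and 0.11, exceeded their median change in each preparation. Rows were not matched for level, so these medians do not show the NAD genes to be more stable.

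For 9 of the genes the confidence intervals were narrower than those of Nmnat3. Over the 27 estimates of these 9 genes the log2 fold changes ran from -0.24 to 0.17. The outermost bounds of the 95% confidence intervals corresponded to 0.742-fold and 1.34-fold. The fold of Arntl in PolyA, 0.828, lies inside those outermost bounds. The log2 fold change was below 0 in all 3 preparations for Nampt, Nmnat1, Nmrk1 and Naprt, above 0 in all 3 for Sirt3 and Nnmt, and mixed for Cd38, Sirt1 and Sirt6. The preparations share their mice, so equal signs across them are not independent.

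**Figure D1:**
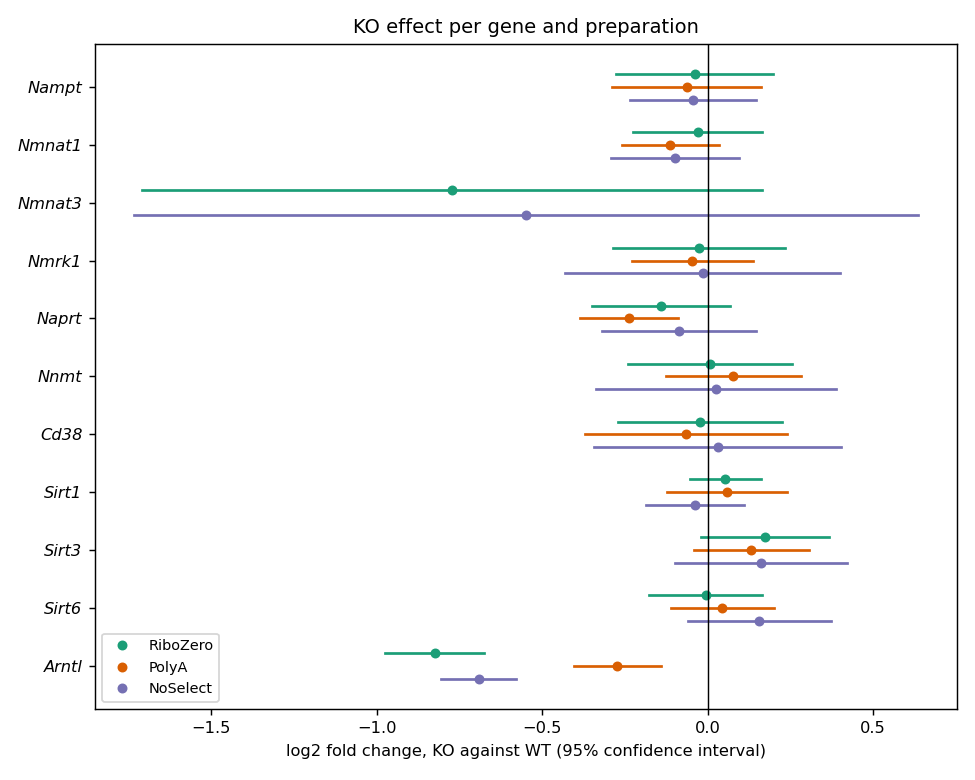
Log2 fold change of KO against WT (x axis) for each NAD gene and for Arntl (y axis), with the 95% confidence interval as a bar, in RiboZero (n = 6 and 6), PolyA (n = 6 and 6) and NoSelect (n = 4 and 4). Intervals of the NAD genes include 0 except that of Naprt in PolyA, while those of Arntl lie below 0, and Nmnat3 has intervals over 1 log2 unit wide on each side in NoSelect.

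Nampt (ENSMUSG00000020572, GRCm38 chr12:32819545-32853349, plus strand) was the gene of main interest for the clock. In RiboZero its levels in WT mice 1 to 6 were 46.6, 51.2, 51.6, 70.0, 67.1 and 66.6 CPM. In KO mice 1 to 6 they were 53.7, 55.6, 57.3, 52.5, 54.8 and 70.4 CPM. The WT mice fell in a low and a high trio with the KO values mostly between them, and the genotypes overlapped fully. PolyA gave 38.1, 43.6, 42.3, 55.8, 53.3 and 53.3 CPM in WT and 40.6, 46.5, 46.4, 45.2, 43.1 and 58.9 CPM in KO. NoSelect gave 46.0, 56.9, 53.7 and 56.1 CPM in WT mice 3 to 6 and 52.0, 47.4, 48.8 and 58.3 CPM in KO. The same mice were high in each case: WT 4, WT 5, WT 6 and KO 6 held the 4 highest values in RiboZero and in PolyA.

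The fold of Nampt in KO against WT was 0.973 in RiboZero (95% confidence interval 0.826 to 1.15, edgeR adjusted p = 0.91). It was 0.957 in PolyA (0.818 to 1.12, adjusted p = 0.802) and 0.969 in NoSelect (0.850 to 1.11, adjusted p = 0.857). Without mouse KO 6 the log2 fold changes were -0.12, -0.13 and -0.11, with adjusted p = 0.675, 0.51 and 0.527. Each was over 1.5 times the value with it, and none passed the threshold.

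**Figure D2:**
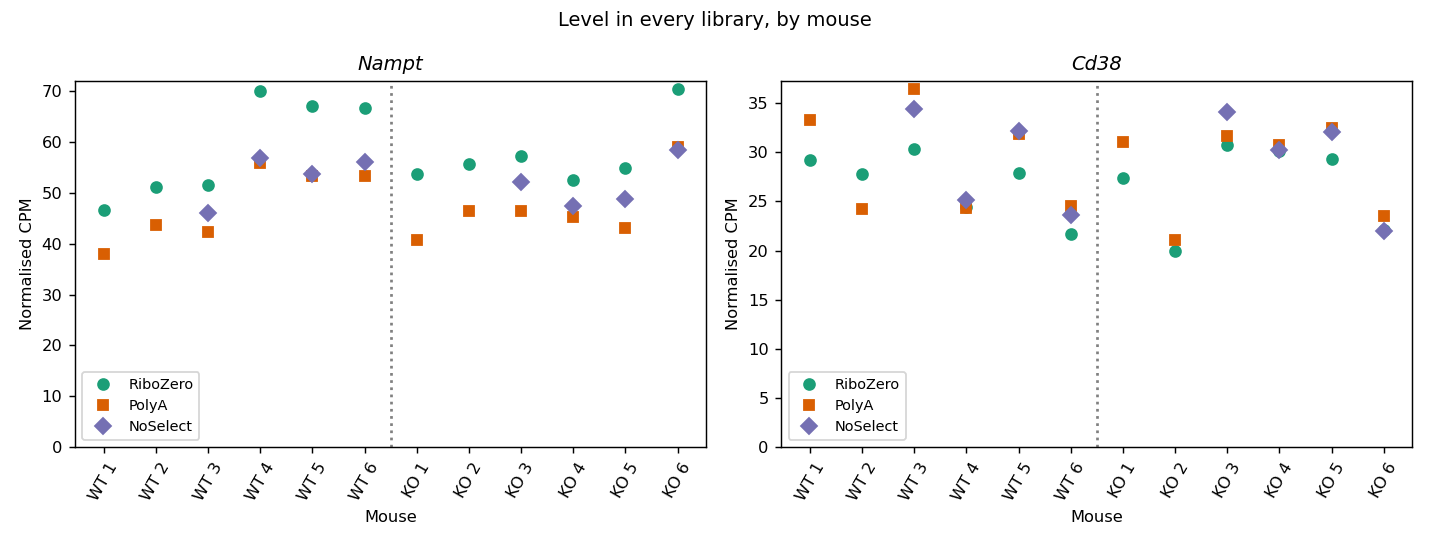
Normalised CPM (y axis) of Nampt and Cd38 in every library, by mouse (x axis), with a symbol for each preparation and a dotted line between WT and KO. For Nampt, mice WT 4, WT 5, WT 6 and KO 6 are the 4 highest in RiboZero and PolyA. For Cd38, KO 2, WT 6 and KO 6 are the 3 lowest in RiboZero.

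Differences between mice in Nampt were larger than differences between repeated libraries of a mouse. With the mean of each genotype and preparation removed, the SD between mice was 0.21 log2 units and the SD between the RiboZero and PolyA libraries of a mouse was 0.04. This ratio of 5.24 compares with 2.60 for Cd38, 1.57 for Sirt1 and 0.611 to 1.53 for the other 7 genes. Neutrophil markers, 6 genes with none at 0, summed to 28.3 to 45.0 CPM in WT and 27.3 to 96.5 CPM in KO in RiboZero. Mouse KO 6 had 27.3 CPM, WT 4 to 6 had 28.3 to 32.8 CPM and WT 1 to 3 had 28.5 to 45.0 CPM. The 5 alveolar macrophage markers summed to 187 to 267 CPM in WT 1 to 3, 308 to 373 CPM in WT 4 to 6, 284 CPM in KO 6 and 223 to 386 CPM in KO 1 to 5. The 5 endothelial markers summed to 1429 to 1560 CPM, 1579 to 1791 CPM, 1943 CPM and 1608 to 2050 CPM in the same order, and neither list had a marker at 0. Both lists were higher in WT 4 to 6 than in WT 1 to 3, as Nampt was. For these lists the KO mice differed from this order. The highest macrophage sum, 386 CPM, was in KO 4, which had the lowest KO level of Nampt, 52.5 CPM. The highest endothelial sum, 2050 CPM, was in KO 3, while KO 6 had the highest Nampt. The 6 alveolar type 2 markers summed to 8997 to 11120 CPM in WT 1 to 3 and 9438 to 11610 CPM in WT 4 to 6, which overlap. KO 6 had 11230 CPM, against 8046 to 9814 CPM in KO 1 to 5, and was the highest KO mouse in each preparation. The lowest of these sums was in KO 3, whose Nampt, 57.3 CPM, came next to that of KO 6 among KO mice. The part of these cell types in the level of Nampt was not tested.

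The genes whose mouse-to-mouse pattern was most like that of Nampt were sought among 9055 rows, by the smaller of the Pearson r in RiboZero and PolyA over the 12 mice, computed on deviations from the genotype means. Glul, the glutamine synthetase gene, came first (r = 0.963 in RiboZero and 0.946 in PolyA). Stt3b, a subunit of the oligosaccharyltransferase, followed (0.990 and 0.942), and then Klhl2, a Kelch-family adaptor of ubiquitin ligases (0.941 and 0.974). Over the 8 NoSelect libraries r was 0.938, 0.954 and 0.959 in the same order, in mice already used. Levels of Glul in RiboZero were 394 to 413 CPM in WT 4, WT 5 and WT 6 and 354 CPM in KO 6, against 189 to 261 CPM in the other 8 mice. Without those 4 mice r over the other 8 was 0.874 and 0.687 for Glul, 0.921 and 0.589 for Stt3b and 0.813 and 0.939 for Klhl2. These values describe points that share a library and its depth, and they were picked as the highest of many.

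Nmnat1 and Nmnat3 encode enzymes that turn nicotinamide mononucleotide into NAD, the first in the nucleus and the second assigned to mitochondria. Nmnat1 (ENSMUSG00000028992, chr4:149467572-149485202, minus strand) had a median of 4.49 CPM in WT (3.77 to 5.27) and 4.40 CPM in KO (3.93 to 4.83) in RiboZero. PolyA medians were 5.08 (4.79 to 5.45) and 4.83 CPM (4.47 to 5.35). In NoSelect WT mice 3 to 6 had 4.60, 4.39, 4.61 and 4.54 CPM and KO mice 4.48, 4.16, 4.504 and 3.86 CPM. The ranges overlapped throughout, with log2 fold changes of -0.03, -0.11 and -0.10 (edgeR adjusted p = 0.914, 0.409 and 0.637). Of its 31-base words, 7.9% also occur in other genes, so part of its count could be shared.

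Nmnat3 (ENSMUSG00000032456, chr9:98287435-98420438, plus strand) was near the limit of detection. WT mice 1 to 6 had 12, 35, 23, 67, 52 and 10 counts in RiboZero, and KO mice 22, 13, 10, 25, 32 and 10. PolyA libraries held 3, 3, 41, 5, 7 and 7 counts in WT and 6, 0, 7, 8, 3 and 8 in KO, despite their greater totals. NoSelect had 31, 16, 68 and 20 counts in WT mice 3 to 6 and 14, 29, 27 and 13 in KO. Mice WT 4 and WT 5 were high in RiboZero, WT 3 alone in PolyA and WT 5 in NoSelect, so no mouse was high in all. The log2 fold change was -0.77 in RiboZero (95% confidence interval -1.71 to 0.16, adjusted p = 0.416) and -0.55 in NoSelect (-1.73 to 0.64, adjusted p = 0.674). In NoSelect it was 0.05 without mouse WT 5. The NoSelect interval spans folds from 0.301 to 1.55, so changes within those limits remain possible.

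**Figure D3:**
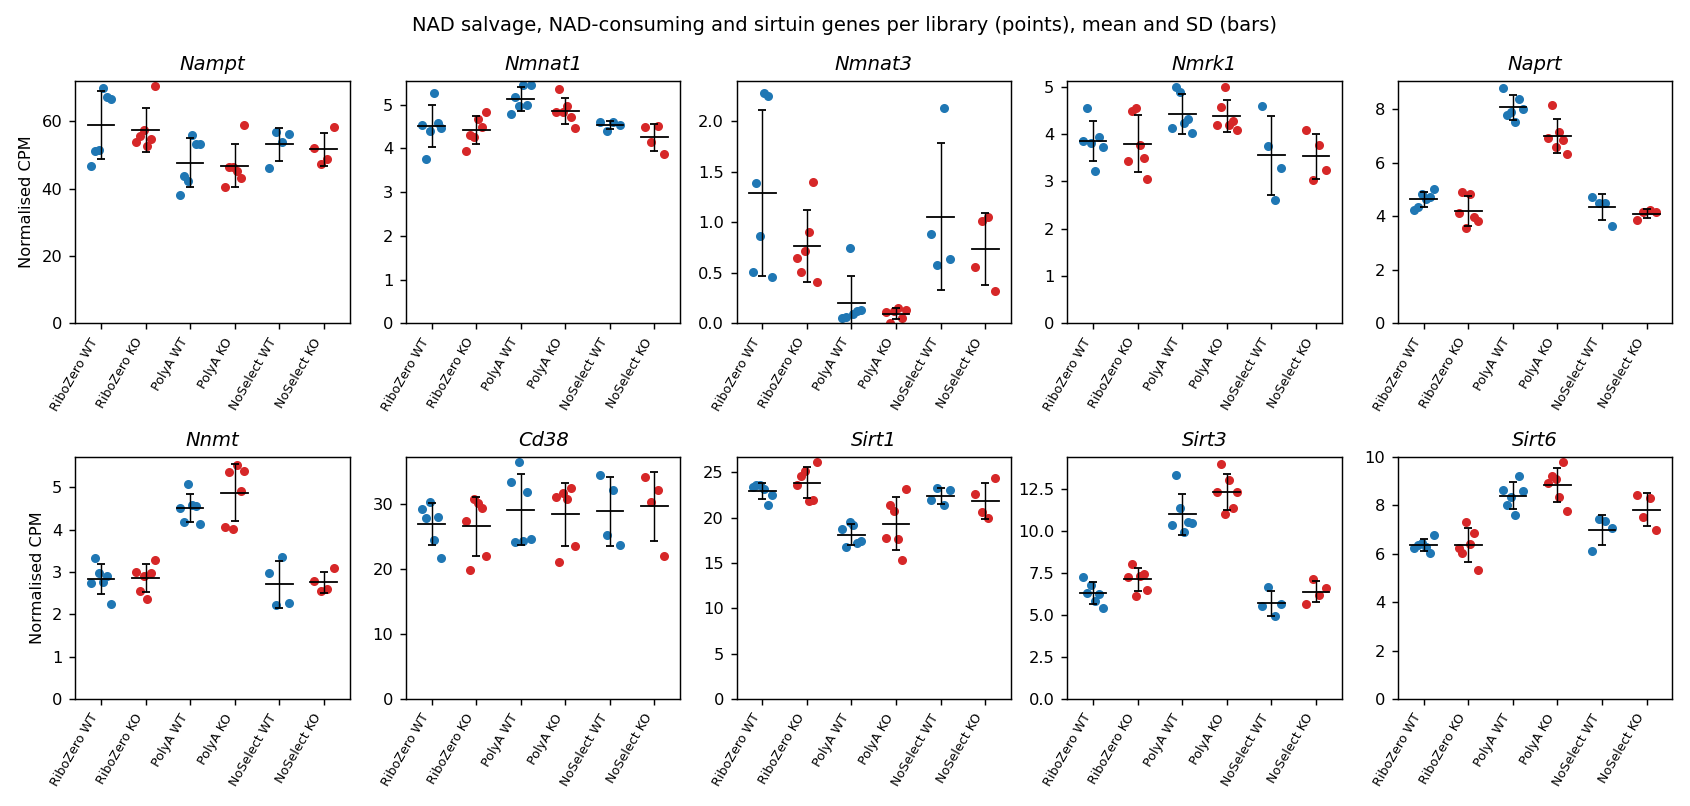
Normalised CPM (y axis, from 0) of each NAD gene in every library (points), by preparation and genotype (x axis), with the group mean and SD as bars (n = 6 for RiboZero and PolyA groups, 4 for NoSelect groups). WT and KO points overlap in every panel and preparation, and PolyA points of Naprt, Nnmt and Sirt3 lie above those of the other preparations.

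Nmrk1 and Naprt feed NAD from other precursors: NMRK1 phosphorylates nicotinamide riboside, and NAPRT takes nicotinic acid into the Preiss-Handler route. Nmrk1 (ENSMUSG00000037847, chr19:18631950-18652428, plus strand) had medians of 3.83 CPM in WT (3.23 to 4.56) and 3.63 CPM in KO (3.04 to 4.55) in RiboZero. They were 4.27 (4.01 to 5.003) and 4.24 CPM (4.08 to 4.99) in PolyA. NoSelect gave 4.60, 3.74, 2.60 and 3.28 CPM in WT mice 3 to 6 and 4.08, 3.04, 3.77 and 3.25 CPM in KO. No preparation separated the genotypes, and the log2 fold changes were -0.03, -0.05 and -0.02 (edgeR adjusted p = 0.946, 0.828 and 0.98).

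Naprt (ENSMUSG00000022574, chr15:75890956-75894481, minus strand) came nearest to a call. In PolyA its WT levels were 8.80, 7.81, 7.90, 7.53, 8.38 and 8.03 CPM in mice 1 to 6. Its KO levels were 6.94, 8.15, 6.61, 7.17, 6.85 and 6.34 CPM. KO mouse 2 lay within the WT range and the other 5 KO mice below all WT mice. The fold was 0.848 (95% confidence interval 0.765 to 0.940) with an edgeR adjusted p = 0.079. DESeq2 called it (log2 fold change -0.24, adjusted p = 0.0172), as did edgeR without KO mouse 2 (-0.27, adjusted p = 0.0493). DESeq2 called 1355 rows in PolyA and edgeR 694. RiboZero medians were 4.68 CPM in WT (4.24 to 5.01) and 4.05 CPM in KO (3.56 to 4.92), with a log2 fold change of -0.14 (adjusted p = 0.52). NoSelect had 4.74, 4.497, 4.51 and 3.66 CPM in WT mice 3 to 6 and 3.88, 4.16, 4.23 and 4.15 CPM in KO, with a log2 fold change of -0.09 (adjusted p = 0.746). Naprt shares 277 exon bases, 11.8% of its exons, with Eef1d on the same strand, and 10.2% of its 31-base words occur in other genes, mainly Eef1d, so the division of reads between them is uncertain.

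Nnmt and Cd38 draw on the same pool from the other side. NNMT methylates nicotinamide and so takes it out of salvage, and CD38 is an ectoenzyme that cleaves NAD. Nnmt (ENSMUSG00000032271, chr9:48591877-48605153, minus strand) had medians of 2.83 CPM in WT (2.25 to 3.33) and 2.94 CPM in KO (2.37 to 3.29) in RiboZero. PolyA medians were 4.54 (4.15 to 5.08) and 5.14 CPM (4.03 to 5.53). NoSelect libraries had 2.98, 2.23, 3.36 and 2.27 CPM in WT mice 3 to 6 and 2.80, 2.55, 2.60 and 3.10 CPM in KO. KO ranges overlapped WT ranges in each, with log2 fold changes of 0.01, 0.08 and 0.02 (edgeR adjusted p = 0.999, 0.725 and 0.966).

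Cd38 (ENSMUSG00000029084, chr5:43868553-43912375, plus strand) varied between mice more than between genotypes. RiboZero levels were 29.3, 27.8, 30.4, 24.5, 27.9 and 21.7 CPM in WT mice 1 to 6 and 27.4, 19.9, 30.7, 30.1, 29.4 and 22.1 CPM in KO. PolyA levels were 33.3, 24.2, 36.4, 24.3, 31.9 and 24.6 CPM in WT and 31.1, 21.04, 31.7, 30.7, 32.4 and 23.5 CPM in KO. NoSelect levels were 34.5, 25.2, 32.2 and 23.7 CPM in WT mice 3 to 6 and 34.1, 30.3, 32.1 and 21.99 CPM in KO. KO 2 was the lowest mouse in RiboZero and PolyA and KO 6 in NoSelect, while WT 2 was mid-range in RiboZero and low in PolyA. The log2 fold changes were -0.02, -0.07 and 0.03 (adjusted p = 0.951, 0.857 and 0.959). B cells also express Cd38, and the 5 B cell markers summed to 85.03, 54.1 and 51.7 CPM in RiboZero in KO 1, WT 6 and KO 5, against 12.3 to 38.2 CPM in the other 9 mice. Those 3 mice had 27.4, 21.7 and 29.4 CPM of Cd38, spread over most of its range, and the part of B cells in its level was not tested.

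Sirt1, Sirt3 and Sirt6 encode NAD-dependent deacylases of the nucleus, the mitochondria and chromatin. Sirt1 (ENSMUSG00000020063, chr10:63319005-63381704, minus strand), the gene with 2 E-boxes in its promoter window above, had the narrowest spread in RiboZero. Its WT levels there were 23.4, 23.6, 23.7, 23.2, 21.4 and 22.5 CPM and its KO levels 23.6, 24.6, 25.1, 21.8, 22 and 26.2 CPM. PolyA medians were 18.1 CPM in WT (16.8 to 19.5) and 19.2 CPM in KO (15.3 to 23.1). NoSelect had 21.9, 23.3, 21.4 and 23.1 CPM in WT mice 3 to 6 and 22.6, 20.6, 19.9 and 24.4 CPM in KO. KO libraries lay above and below the WT range in PolyA and NoSelect, and within or above it in RiboZero. The folds were 1.04 in RiboZero (95% confidence interval 0.963 to 1.12), 1.04 in PolyA (0.917 to 1.18) and 0.974 in NoSelect (0.879 to 1.08), with edgeR adjusted p = 0.664, 0.777 and 0.842.

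Sirt3 (ENSMUSG00000025486, chr7:140863666-140882309, minus strand) had medians of 6.29 CPM in WT (5.42 to 7.28) and 7.30 CPM in KO (6.12 to 8.06) in RiboZero. In PolyA they were 10.5 (9.93 to 13.3) and 12.3 CPM (11.0 to 14.0). NoSelect had 5.51, 6.69, 4.92 and 5.67 CPM in WT mice 3 to 6 and 5.64, 7.12, 6.17 and 6.60 CPM in KO. KO medians were above WT medians in each preparation and the ranges overlapped in each. The log2 fold changes were 0.17 (SE 0.09), 0.13 (SE 0.08) and 0.16 (SE 0.11), with adjusted p = 0.37, 0.42 and 0.556. Its exons overlap those of Ric8a (418 bases) and Psmd13 (342 bases) on the opposite strand. The kits mark strand, and whether the counting used it is not given in the sources used here.

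Sirt6 (ENSMUSG00000034748, chr10:81621785-81627797, minus strand) had medians of 6.34 CPM in WT (6.05 to 6.80) and 6.32 CPM in KO (5.32 to 7.33) in RiboZero. PolyA medians were 8.46 (7.61 to 9.23) and 9.02 CPM (7.79 to 9.79). NoSelect had 6.10, 7.45, 7.37 and 7.06 CPM in WT mice 3 to 6 and 8.43, 7.54, 8.31 and 6.99 CPM in KO. The values of KO 3, KO 4 and KO 5 exceeded all WT values in NoSelect, and KO 6 lay within the WT range. The log2 fold changes were -0.01, 0.04 and 0.16 (adjusted p = 0.983, 0.803 and 0.486).

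The other genes of NAD metabolism were examined as 37 genes in 5 lists. None of the 32 tested in RiboZero, 33 in PolyA and 32 in NoSelect was called by edgeR, where 3.46%, 4.03% and 2.17% of all rows were. At an unadjusted p under 0.05 there were 3, 6 and 3, beside 2739 of 16710, 3098 of 17211 and 2696 of 17124 rows. With so few genes, a count of 0 called lies close to those shares. Their median log2 fold changes were 0.02, -0.02 and 0.01. Ido2, Acmsd, Nmrk2 and Aox4 were tested in no preparation, and Tdo2 in PolyA alone. The 2 genes of lowest p in each list, averaged on the log scale over the preparations, are named here, with no claim of a change. The lowest single adjusted p of the 37 genes was that of Sarm1, an NAD consumer, in PolyA. Its log2 fold changes were -0.02 in RiboZero, -0.55 in PolyA and 0.04 in NoSelect (edgeR adjusted p = 0.98, 0.0695 and 0.977).

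Among 10 genes of other synthesis and transport, Nt5e, which encodes the CD73 ectonucleotidase, had 60.04 ± 8.11 CPM in WT and 49.3 ± 6.82 CPM in KO (SD, n = 6 each) in RiboZero. In the order RiboZero, PolyA, NoSelect, its log2 fold changes were -0.29, -0.34 and -0.35 (edgeR adjusted p = 0.166, 0.15 and 0.207). WT and KO values overlapped in RiboZero (52.9 to 72.8 and 41.2 to 58.4 CPM). Nadk, the cytosolic NAD kinase, had -0.07, -0.08 and -0.12 (adjusted p = 0.341, 0.407 and 0.229). For the de novo route from tryptophan, Afmid had -0.43, -0.32 and -0.01 (adjusted p = 0.428, 0.169 and 0.99) and Kmo -0.08, -0.32 and -0.12 (adjusted p = 0.89, 0.276 and 0.857). Afmid hydrolyses formylkynurenine and Kmo hydroxylates kynurenine.

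Of the other 4 sirtuins, Sirt5, a mitochondrial desuccinylase, had log2 fold changes of 0.15, 0.25 and 0.23 (edgeR adjusted p = 0.609, 0.31 and 0.512) and Sirt2, the mainly cytosolic member, 0.04, -0.04 and -0.04 (adjusted p = 0.731, 0.621 and 0.665). Among 10 other NAD consumers, Parp3, an ADP-ribosyltransferase of DNA repair, had 0.15, 0.04 and 0.16 (adjusted p = 0.269, 0.793 and 0.143). Tnks2, a tankyrase, had 0.08, 0.15 and 0.06 (adjusted p = 0.465, 0.303 and 0.547). For the 4 genes that clear nicotinamide and its methyl form, Aox1, an aldehyde oxidase, had 0.13, 0.13 and 0.19 (adjusted p = 0.475, 0.635 and 0.325) and Cyp2e1 0.02, -0.01 and 0.29 (adjusted p = 0.986, 0.992 and 0.713).

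The KO effect on the NAD genes was then compared between preparations by the interaction term. In PolyA against NoSelect, RiboZero against NoSelect and PolyA against RiboZero, 0 of 10 genes were called by edgeR, as were 0% of 18372, 17502 and 18164 rows. At an unadjusted p under 0.05 there were 0 NAD genes in each, beside 412, 244 and 331 rows. The edgeR fits here had no mouse block, although the preparations share their mice, so their p-values and bounds leave the pairing unused. With the mouse as a block, 0 NAD genes were called as well. DESeq2 called 13, 9 and 11 rows, none of them NAD genes. Without Nmnat3, the differences in KO effect ran from -0.17 to 0.09 on the log2 scale, and the outermost 95% bounds were -0.60 and 0.43. Arntl, the targeted gene, was not called by edgeR either. In PolyA against RiboZero its difference was 0.57 (95% confidence interval 0.37 to 0.78, edgeR adjusted p = 0.11). A count of 0 called therefore does not show that the KO effect was equal across preparations.

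The level of most of these genes differed between PolyA and the other preparations, as did that of most rows of the table. A preparation effect was called at an adjusted p under 0.05 with a change of at least 1 on the log2 scale. In PolyA against NoSelect 1 of 10 NAD genes was called, while 25.1% of rows were. PolyA against RiboZero also gave 1 of 10, against 23.6%, and RiboZero against NoSelect 0 of 10, against 4.3%. By the adjusted p alone, in these fits without a mouse block, 8, 9 and 1 of 10 passed in the order PolyA against NoSelect, PolyA against RiboZero, RiboZero against NoSelect. Of all rows 79.1%, 81.1% and 45.9% did, so these counts do not set the NAD genes apart. The gene called both times was Nmnat3, lower in PolyA, which passed the low-count filter of these fits only through its RiboZero and NoSelect libraries, so its call is given as a description, with no fold or p. Its PolyA libraries held 0 to 41 counts, its NoSelect libraries 13 to 68 and its RiboZero libraries 10 to 67. These groups overlapped through WT 3 alone, the PolyA library with 41 counts, and the other 11 PolyA libraries held 0 to 8.

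Sirt3, Naprt and Nnmt were higher in PolyA at adjusted p-values far below the threshold, but stayed under the fold required. Sirt3 averaged 11.7 ± 1.31 CPM in PolyA (SD, n = 12), 6.71 ± 0.774 in RiboZero (n = 12) and 6.04 ± 0.732 in NoSelect (n = 8). No PolyA library, at 9.93 to 14.0 CPM, overlapped those of the other preparations, at 4.92 to 8.06 CPM. Its fold in PolyA against NoSelect was 1.99 (95% confidence interval 1.80 to 2.19, edgeR adjusted p = 2.11e-11), just short of the limit. It was called without a low-count filter (log2 fold change 1.05) and without the rows of Lars2 and Gm42418 (1.01).

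Naprt averaged 7.54 ± 0.762 CPM in PolyA, 4.42 ± 0.478 in RiboZero and 4.23 ± 0.354 in NoSelect, with a fold of 1.83 in PolyA against NoSelect (1.68 to 2.00, adjusted p = 2.72e-11). Nnmt averaged 4.70 ± 0.546, 2.84 ± 0.327 and 2.74 ± 0.398 CPM, with a fold of 1.76 (1.55 to 2.00, adjusted p = 2.79e-08). Both were fully separated between PolyA and the other preparations, as was Sirt3. The share of all rows separated in this way was not counted, so the separation does not set these genes apart. Against RiboZero the folds in PolyA were 1.74 for Sirt3, 1.71 for Naprt and 1.66 for Nnmt. Between RiboZero and NoSelect these genes had folds of 1.11, 1.04 and 1.04 (adjusted p = 0.0813, 0.481 and 0.717).

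Sirt6, Nmrk1 and Nmnat1 were higher in PolyA by smaller amounts, with folds against NoSelect of 1.20, 1.28 and 1.17 (edgeR adjusted p = 0.000266, 0.000832 and 0.00013). In the fit without a mouse block, Sirt6 was also the only NAD gene past the adjusted p in RiboZero against NoSelect. Its fold there was 0.859 (adjusted p = 0.00497). Sirt1 was lower in PolyA, with folds of 0.870 against NoSelect (adjusted p = 0.00557) and 0.802 against RiboZero (adjusted p = 6.05e-06). Nampt was lower in PolyA than in RiboZero, with a fold of 0.816 (adjusted p = 0.00173), and had 0.928 against NoSelect (adjusted p = 0.203). Cd38 had folds of 1.02 in PolyA against NoSelect and 0.914 in RiboZero against NoSelect (adjusted p = 0.862 and 0.314). The median log2 fold change over all rows was 0.10 in PolyA against NoSelect, 0.03 in RiboZero against NoSelect and 0.07 in PolyA against RiboZero.

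With the mouse as a block, the adjusted p of Nampt in RiboZero against NoSelect was 9.87e-06 in place of 0.136, and that of Cd38 was 0.00631 in place of 0.314. In PolyA against RiboZero, the edgeR adjusted p of Cd38 was 0.00948 with the block in place of 0.276. All of these remained under the fold required, so none became a call. Preparation is tied to kit, input amount and depth in these libraries, which cannot be told apart.

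**Figure D4:**
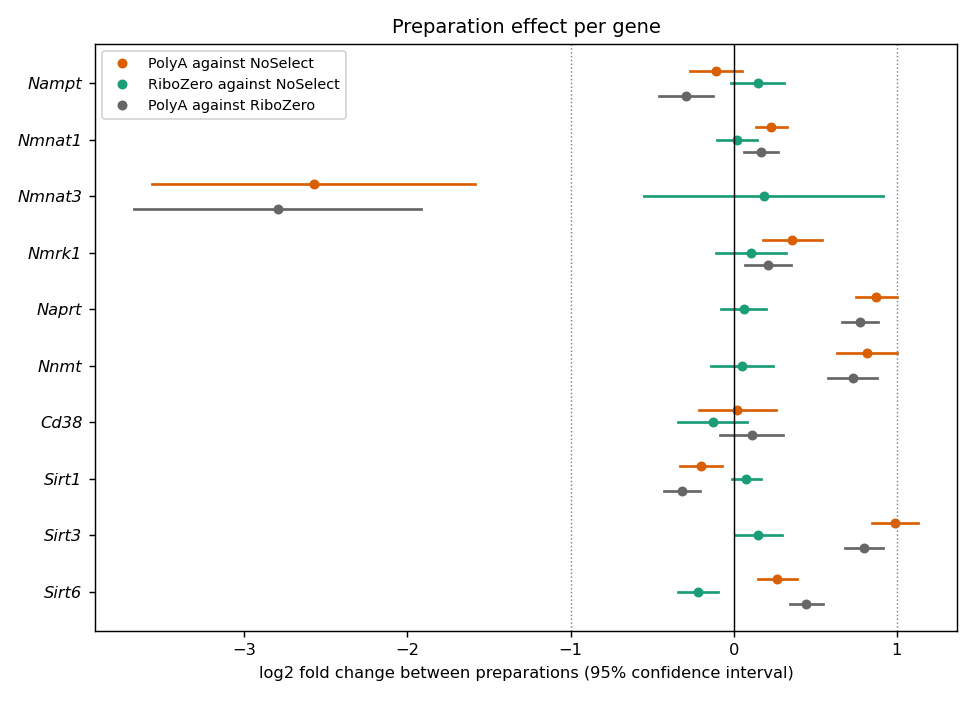
Log2 fold change between preparations (x axis) for each NAD gene (y axis), with the 95% confidence interval as a bar. Dotted lines mark the fold required for a call, 1 log2 unit. Nmnat3, with 0 to 8 counts in 11 of 12 PolyA libraries, lies beyond it on the low side in PolyA, and Sirt3, Naprt and Nnmt lie close to it on the high side.

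Levels were compared between genes per kilobase of the longest coding transcript in the annotation. In NoSelect the order was Nampt (11.6 ± 1.02 CPM per kb, SD, n = 8), Cd38 (8.94 ± 1.51), Sirt1 (4.999 ± 0.331), Sirt6 (3.92 ± 0.394), Sirt3 (3.76 ± 0.456), Nnmt (2.62 ± 0.381), Naprt (2.23 ± 0.186), Nmrk1 (1.83 ± 0.325), Nmnat1 (1.65 ± 0.0976) and Nmnat3 (0.413 ± 0.258). Neighbours whose libraries did not overlap were Cd38 and Sirt1, Sirt1 and Sirt6, and Nmnat1 and Nmnat3. The ranges of all other neighbours overlapped, Nampt and Cd38 included. In RiboZero, Nampt (12.8 ± 1.81, n = 12) and Cd38 (8.18 ± 1.15) were separated. In PolyA, Sirt3 (7.26 ± 0.815) took the third place, ahead of Sirt6 (4.57 ± 0.345), Nnmt (4.502 ± 0.523) and Sirt1 (4.23 ± 0.498). The place of Sirt3 depends on the length used: over the union of its exons, 5973 bases in place of 1606, its mean level in NoSelect was 1.01 CPM per kb, below that of Nmnat1 (1.45).

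**Figure D5:**
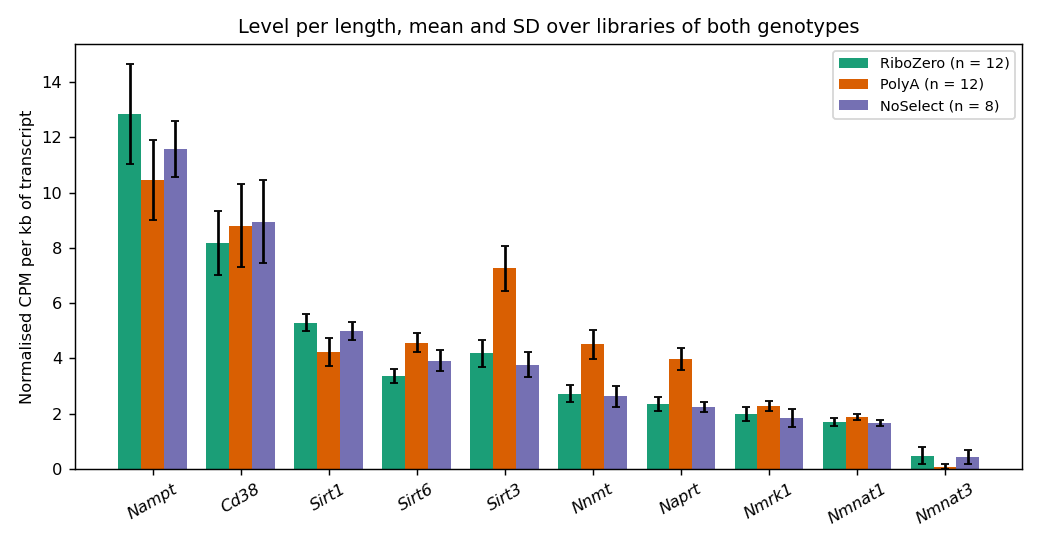
Mean normalised CPM per kilobase of the longest coding transcript (y axis, from 0) for each NAD gene (x axis) in each preparation, over libraries of both genotypes, with SD as error bars (n = 12, 12 and 8). Nampt and Cd38 are highest in all preparations and Nmnat3 is lowest, and PolyA bars stand out for Sirt3, Nnmt and Naprt.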

How the data were processed

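Gene-level estimated counts from lung RNA were made by the authors. Salmon 1.4.0, UMI-tools 1.1.1 and GRCm38 are listed per the submitters' processing notes, with no role or order given. The deposited estimated counts, 12.8% of them not whole, were rounded. Rows were fitted with edgeR 4.0.16 in R 4.3.3 (TMM scaling, filterByExpr, estimateDisp, glmQLFit, glmQLFTest), a fit tested on simulated data. KO and WT were compared within each preparation and preparations with genotype as a term, with Benjamini-Hochberg adjustment over all rows tested. Where a row varied less than Poisson noise, edgeR raised its p, which the confidence intervals do not carry. DESeq2 1.42.0, other scalings and filters, and leaving out each mouse were alternatives. The NAD genes and lists were chosen with earlier results of these data known. The genes named are Arntl, the 10 NAD genes, the 2 of lowest mean log p in each list, Sarm1 for its single adjusted p, and the 3 most like Nampt. Coordinates and lengths are from GENCODE M21 (GRCm38), promoters from RefSeq. Libraries of one mouse correlated in their deviations from group means (r from 0.266 to 0.748 over 9480 rows, each best with its own mouse), and mouse numbers pair preparations, per the labels. The labels name separate animals within a group. Of the 72 pairs of libraries within a group, none agreed within sampling noise.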

Additional observations from a re-analysis of the deposited data

Results flagged for a closer look

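In 3 of 60 gene and group combinations examined, a library lay far from the rest of its group, a rate that chance gives in about 1 in 20 groups. Nampt in mouse KO 6 was 70.36 CPM in RiboZero, where the next KO mouse had 57.33, and 58.94 CPM in PolyA, where the next had 46.45. Both libraries come from the mouse whose Xist and Y-linked counts go against its label, and leaving it out is reported with the Nampt values. Nmnat3 in PolyA mouse WT 3 was 0.7462 CPM, from 41 counts, where the next WT mouse had 0.1338 CPM. The same mouse had 23 and 31 counts in RiboZero and NoSelect, within the range of the other WT mice. The causes were not tested.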

How the results depend on the processing

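Across the alternatives, 0 NAD genes were called in KO against WT in RiboZero and NoSelect. In PolyA the count was 1 by DESeq2 and 0 to 1 when each library was left out in turn, the gene being Naprt both times (without KO mouse 2). In PolyA against NoSelect it was 2 without a low-count filter and 2 without the Lars2 and Gm42418 rows, Sirt3 joining Nmnat3. It was 0 with at least 10 counts required in every library, in this comparison and in PolyA against RiboZero, because that filter removes Nmnat3. With the replicate block, a pairing by number alone between WT and KO (same-number r from -0.147 to 0.265), 0 NAD genes were called in each preparation. With the mouse as block, paired across preparations, the counts were 1, 0 and 1, and no call changed. Of the log2 fold changes of single genes under all settings, 1662 of 1666 kept their side of the threshold. Of these, 27 moved by more than the SE of the main estimate. The other 4 became calls, and 0 called values reversed. Rows called in KO against WT moved more than 1.5 times. In RiboZero (579) they were 976 by DESeq2, 372 with the replicate block, 380 without WT 5, 891 in a single fit of all 32 libraries and 255 in mice 3 to 6 alone. In PolyA (694) they were 1355, 1066 without WT 2, 457 without WT 5, 442 without KO 2 and 1564 in a single fit. In NoSelect (372) they were 878 by DESeq2, 103 with the replicate block and 148 to 210 without WT 4, WT 5, WT 6, KO 4 or KO 5. Rows called in PolyA against NoSelect (4619) were 7039 without a filter and 2902 with the stricter filter, in RiboZero against NoSelect (752) 301 with the stricter filter, and in PolyA against RiboZero (4292) 6552 and 2560. The PolyA split of 279 higher and 415 lower turned to 961 and 603 in the single fit, 620 and 446 without WT 2 and 243 and 222 in mice 3 to 6 alone. Median-of-ratios scaling lowered the median of all rows in PolyA against NoSelect from 0.10 to 0.04. The cause was not tested. Depth limits Nmnat3 most, with 0 to 68 counts a library. Confidence intervals rest on 4 to 6 mice a group.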
